A study of Mus musculus with 8 samples.

Results

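Transcripts of 7 matrix metalloproteinases (MMPs; Mmp2, Mmp3, Mmp7, Mmp9, Mmp12, Mmp13 and Mmp14) and of 3 tissue inhibitors of metalloproteinases (TIMPs; Timp1, Timp2 and Timp3) were compared in the pancreas of lean and obese mice. The genes were taken by symbol, and 10 of 10 were found among the 15047 genes with RNA-Seq values. All mice were male and on a C57BL/6 background. Wild-type animals received a low-fat diet (LFD, n = 3) or a high-fat diet with 60% of its calories from fat (HFD, n = 3, diet-induced obesity), each for 10 weeks from an age of 4 weeks. The leptin-deficient ob/ob animals (C57BL/6J, n = 2, genetic-induced obesity) were fed normal chow from the same age, so genotype and diet both differ between ob/ob and LFD mice. As the paper states for these samples, every mouse carried an orthotopic transplant of mT organoids, ductal cultures grown from pancreatic tumours of genetically engineered mice that carry Pdx1-Cre. The transplant is not in the labels, where the tissue is pancreas, and the time between transplant and collection of these samples is not given in the sources used here. The RNA is from whole tissue, so each value sums over graft, host pancreas, stroma and immune cells. Fewer cells of a type and less RNA per cell cannot be told apart in such data.

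MMPs are zinc-dependent endopeptidases that are made as inactive proenzymes and together can cut most proteins of the extracellular matrix, as well as cytokines, growth factors and other proteases. TIMPs bind the active site of MMPs in a tight complex, and TIMP-2 also has a part in the activation of proMMP-2 at the cell surface by MMP-14. In pancreatic tumours and in pancreatitis these genes are known from fibroblasts, macrophages, neutrophils and epithelial cells, and matrilysin (Mmp7) is known from metaplastic ducts.

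The start sites of the inducible MMP genes share sequence elements that are shown here because 4 of the members carry them together. RefSeq promoter windows (assembly GRCm38.p6, 250 bases before to 50 bases after a start) were found for 8 of the 10 members, and none was found for Mmp2 and Mmp9. The windows below are 5′ to 3′ on the strand of the gene, with an AP-1 site (TGAGTCA, or TGACTCA where it lies on the other strand) and the TATA box (TATAAA) in capitals. They are Mmp3 at chr9:7445572-7445871, Mmp7 at chr9:7691840-7692139 (the upstream of its 2 windows), Mmp12 at chr9:7347124-7347423 (the downstream of its 2 windows) and Mmp13 at chr9:7272264-7272563, all on the plus strand.
Mmp3: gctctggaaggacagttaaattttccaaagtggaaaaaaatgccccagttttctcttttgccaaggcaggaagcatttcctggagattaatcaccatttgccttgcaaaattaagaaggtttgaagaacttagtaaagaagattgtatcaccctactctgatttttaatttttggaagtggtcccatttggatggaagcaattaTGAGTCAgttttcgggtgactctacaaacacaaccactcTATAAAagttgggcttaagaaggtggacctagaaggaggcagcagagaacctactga
Mmp7: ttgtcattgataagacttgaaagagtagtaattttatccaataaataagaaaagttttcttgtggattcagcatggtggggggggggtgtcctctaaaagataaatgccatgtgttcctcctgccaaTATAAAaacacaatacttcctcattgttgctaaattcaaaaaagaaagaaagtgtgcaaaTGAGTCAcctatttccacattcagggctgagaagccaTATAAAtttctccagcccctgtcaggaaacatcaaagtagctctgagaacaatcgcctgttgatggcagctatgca
Mmp12: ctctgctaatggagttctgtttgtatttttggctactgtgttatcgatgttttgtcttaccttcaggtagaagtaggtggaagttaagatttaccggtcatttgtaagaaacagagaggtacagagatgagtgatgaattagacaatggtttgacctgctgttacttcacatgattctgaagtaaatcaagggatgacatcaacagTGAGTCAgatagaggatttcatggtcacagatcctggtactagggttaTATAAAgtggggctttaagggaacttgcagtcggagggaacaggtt
Mmp13: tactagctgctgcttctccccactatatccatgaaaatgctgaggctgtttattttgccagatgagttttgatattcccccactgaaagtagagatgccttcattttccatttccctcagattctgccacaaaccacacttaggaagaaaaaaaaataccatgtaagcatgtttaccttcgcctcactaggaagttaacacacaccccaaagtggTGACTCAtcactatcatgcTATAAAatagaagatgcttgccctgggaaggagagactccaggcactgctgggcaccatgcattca

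The AP-1 site began at position -46 from the annotated start in Mmp3, -63 in Mmp7, -44 in Mmp12 and -35 in Mmp13. The TATA letters began at -7 in Mmp3, -123 and -26 in Mmp7, 5 in Mmp12 and -16 in Mmp13. Whether these starts are the ones used in this tissue was not tested, so the positions hold for the annotation only. Searched on both strands, the AP-1 site was present in 4 of 8 members (4 of their 10 windows) and in 5.2% of 32851 RefSeq promoter windows of this length. The TATA box was in the same 4 members (4 of 10 windows) and in 13.6% of all windows. The exact letters of neither element were in the windows of Mmp14, Timp1, Timp2 and Timp3. These 4 held the GC box (GGGCGG, 4 of the 10 member windows), which 35.7% of all windows hold. Their GC content was 55.0% to 68.7%, against 39.0% to 43.7% for the 4 windows printed above. For comparison, the window of Timp1, the member with the largest difference between obese and LFD mice, is printed without marks from chrX:20869916-20870215 on the plus strand. The search took exact letters only, so the near match TGAGTAA in this window was not counted.
Timp1: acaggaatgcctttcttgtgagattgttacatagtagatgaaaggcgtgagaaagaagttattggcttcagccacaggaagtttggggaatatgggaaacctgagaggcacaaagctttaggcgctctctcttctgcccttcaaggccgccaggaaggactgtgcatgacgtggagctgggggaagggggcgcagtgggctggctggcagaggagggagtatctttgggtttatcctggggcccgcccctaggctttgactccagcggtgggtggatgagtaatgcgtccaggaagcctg

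A PEA3 site (AGGAAG) was in 7 of 8 members (8 of 10 windows) and in 35.4% of all windows. A STAT element (TTCNNNGAA) was in 0 of 8 (0 of 10 windows) and in 8.3% of all windows. These matches describe letters in a window and carry no information on binding in this tissue.

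The deposited values are rlog values, counts put on the log2 scale and corrected for library size, so a difference of 1 is a 2-fold difference, and rlog pulls the differences of weakly expressed genes towards 0. They are not scaled by gene length, so levels are compared between mice and not between genes. The median rlog value of a mouse lay between 7.09 and 7.25, and the correlation between mice over all genes between 0.884 and 0.982. The depth is unknown. Lep, the gene disrupted in ob/ob mice, had rlog values of 5.86 to 6.28 in LFD, 7.26 to 7.31 in HFD and 6.78 and 8.13 in ob/ob mice, and since the ob allele is a nonsense change that leaves a transcript, its level does not check the genotype. The labelled tissue was checked with 12 acinar genes, which were all in the data and made up 51.4% to 53.9% of the summed linear values in LFD mice. Their share was 50.3%, 33.1% and 17.8% in HFD replicates 1, 2 and 3 and 47.4% and 19.9% in ob/ob replicates 1 and 2, so 3 obese mice stood apart as poor in acinar transcripts.

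All 10 members had a higher mean in HFD mice and in ob/ob mice than in LFD mice, which held for 52.4% and 53.1% of all genes. Over the 8 mice the members varied more than most genes, with a median SD of 0.991 against 0.387 for all genes. The highest value of each member was in an obese mouse: in HFD replicate 2 for Mmp3, Mmp7, Mmp12 and Mmp13, in HFD replicate 3 for Mmp2 and Mmp9, and in ob/ob replicate 2 for Mmp14 and the 3 TIMPs. The lowest value was in an LFD mouse for 8 members and in HFD replicate 1 for Timp2 and Timp3. No member reached an adjusted p under 0.05 in limma with all 8 mice, equal weights and no covariate, in any of the comparisons described below.

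**Figure D1:**
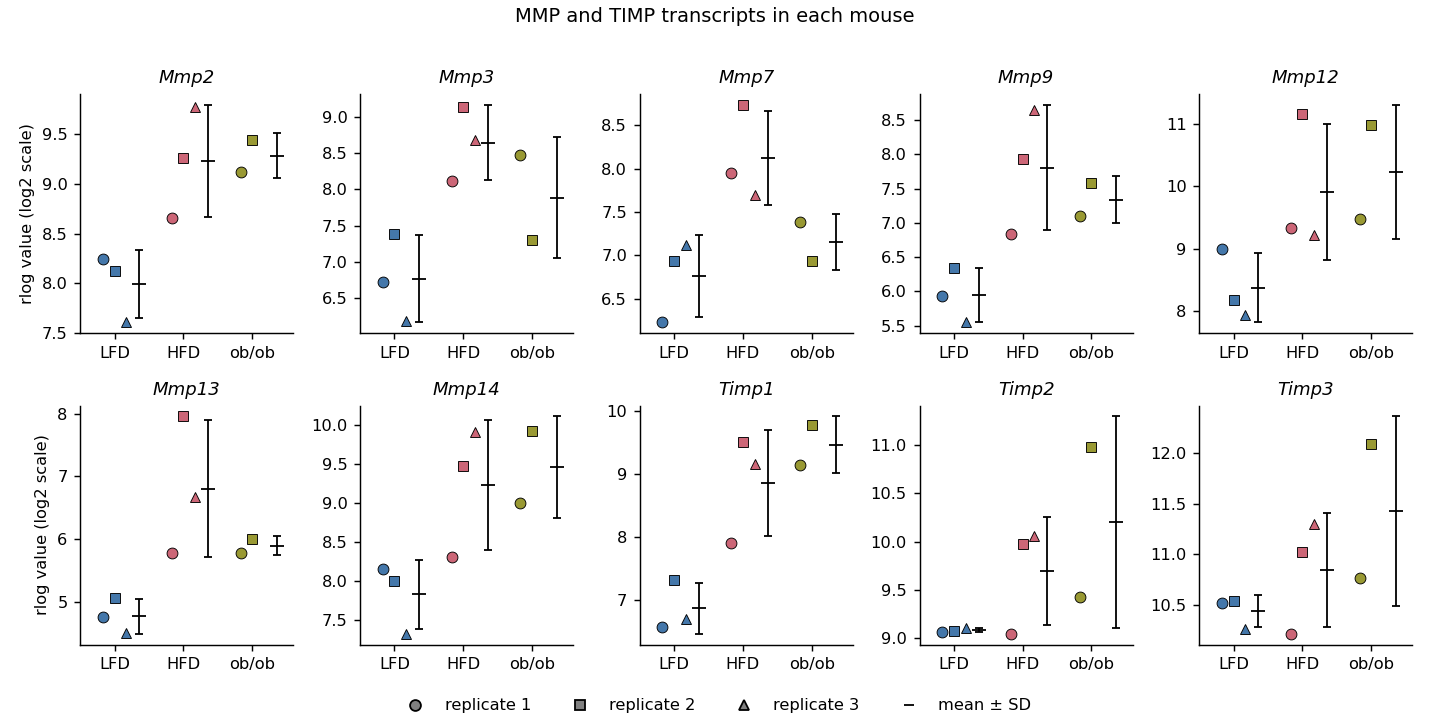
Each panel plots the rlog value (log2 scale, with its own axis range) of a member in each mouse, by group, with the replicate number as the shape of the point and the group mean ± SD beside the points (n = 3 LFD, 3 HFD and 2 ob/ob). All 7 MMPs and Timp1 lie higher in each HFD mouse than in any LFD mouse, while HFD replicate 1 has the lowest Timp2 and Timp3 of all mice.

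Among the collagenases, Mmp13, which cuts fibrillar collagen, had rlog values of 4.76, 5.06 and 4.51 in LFD mice, 5.78, 7.96 and 6.68 in HFD mice and 5.79 and 6.00 in ob/ob mice. Each obese mouse lay above each LFD mouse, and HFD replicate 2 was the highest. The mean was 4.78 ± 0.28 (SD, n = 3) in LFD, 6.81 ± 1.09 (n = 3) in HFD and 5.90 ± 0.15 (n = 2) in ob/ob mice. Mmp3, stromelysin-1, degrades proteoglycans, laminin and fibronectin and activates other proMMPs. Its rlog values were 6.72, 7.39 and 6.19 in LFD, 8.11, 9.15 and 8.68 in HFD and 8.48 and 7.30 in ob/ob mice. The HFD mice were above every LFD mouse, and ob/ob replicate 2 fell within the LFD range. Mmp7, matrilysin, is a small MMP of epithelial cells with a broad range of matrix and cell surface substrates. It was at 6.23, 6.94 and 7.12 in LFD, 7.95, 8.73 and 7.69 in HFD and 7.39 and 6.93 in ob/ob mice. Here too the HFD mice were above every LFD mouse, and they were also above both ob/ob mice, of which replicate 2 lay within the LFD range.

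The gelatinases Mmp2 and Mmp9 digest denatured collagen and basement membrane collagen. Mmp2, typically made by fibroblasts, had rlog values of 8.25, 8.13 and 7.61 in LFD, 8.65, 9.26 and 9.78 in HFD and 9.12 and 9.44 in ob/ob mice. Mmp9, stored in granules by neutrophils and also made by macrophages, was at 5.94, 6.34 and 5.55 in LFD, 6.83, 7.94 and 8.65 in HFD and 7.10 and 7.58 in ob/ob mice. For both gelatinases every obese mouse lay above every LFD mouse, and HFD replicate 1 was the lowest of the obese mice. The HFD and ob/ob groups overlapped, with means of 9.23 ± 0.56 and 9.28 ± 0.23 for Mmp2 and 7.80 ± 0.91 and 7.34 ± 0.34 for Mmp9.

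Mmp12, the macrophage metalloelastase, had rlog values of 9.0, 8.18 and 7.94 in LFD, 9.33, 11.16 and 9.22 in HFD and 9.47 and 10.99 in ob/ob mice. HFD replicate 2 and ob/ob replicate 2 stood apart from the other obese mice, and the SD was 1.09 in HFD and 1.07 in ob/ob mice. Mmp14, the membrane-type enzyme MT1-MMP that cuts collagen at the cell surface and activates proMMP-2, was at 8.16, 8.0 and 7.33 in LFD, 8.31, 9.48 and 9.91 in HFD and 9.0 and 9.92 in ob/ob mice. The obese mice were all above the LFD mice for both genes, although HFD replicate 1 was close to the highest LFD mouse for Mmp14.

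Of the inhibitors, Timp1, a secreted and inducible TIMP, had rlog values of 6.58, 7.33 and 6.71 in LFD, 7.91, 9.51 and 9.17 in HFD and 9.15 and 9.79 in ob/ob mice. Each obese mouse was above each LFD mouse, and the means were 6.88 ± 0.40, 8.86 ± 0.85 and 9.47 ± 0.45. Timp2, which is expressed in many tissues and takes part in proMMP-2 activation, was at 9.06, 9.07 and 9.10 in LFD, 9.04, 9.97 and 10.06 in HFD and 9.43 and 10.98 in ob/ob mice. Its LFD mean was 9.08 ± 0.02, and HFD replicate 1 lay just below the LFD mice. Timp3, which is bound to the matrix and also inhibits ADAM proteases, was at 10.52, 10.54 and 10.26 in LFD, 10.22, 11.02 and 11.30 in HFD and 10.76 and 12.09 in ob/ob mice. Timp2 and Timp3 therefore overlapped between HFD and LFD mice, and their profiles were the most alike of all pairs of members (root mean square difference 0.148 over 8 mice, after each gene was centred on its mean).

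The comparison of HFD with LFD mice asks how diet-induced obesity relates to these transcripts in mT-bearing pancreas. The 7 MMPs and Timp1 did not overlap between the groups, 8 of 10 members, while 12.9% of all genes were higher in this way. The same 8 members had an unadjusted limma p under 0.05, against 19.8% of all genes in either direction and 11.5% in the upward direction. The largest log2 differences were 2.03 for Mmp13 (SE 0.49, 95% interval 0.91 to 3.15), 1.99 for Timp1 (SE 0.41, 1.04 to 2.93) and 1.88 for Mmp3 (SE 0.42, 0.93 to 2.84). Those of Timp2 and Timp3 were 0.61 (-0.30 to 1.52) and 0.40 (-0.45 to 1.26), or 0.93 and 0.72 without HFD replicate 1. That of Mmp12, 1.53 (0.21 to 2.86), was 0.90 without HFD replicate 2. The median over the 10 members was 1.47, against 0.03 over all genes. After Benjamini-Hochberg adjustment over all genes the limma p was lowest for Mmp3 and Timp1, at 0.175, and 0 of 15047 genes were under 0.05, while 2985 had an unadjusted p under 0.05. These calls depended on HFD replicate 1, the only HFD mouse whose acinar share was close to that of LFD mice. Without it, 7 members (Mmp2, Mmp3, Mmp7, Mmp9, Mmp13, Mmp14 and Timp1) had an adjusted limma p between 0.0112 and 0.0360, and 2812 genes of the whole data set were under 0.05. With limma's array weights, which gave that mouse a weight of 0.273 and HFD replicate 2 a weight of 9.36, all 10 members and 6656 genes were under 0.05. The estimation of these weights stopped before convergence.

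The comparison of ob/ob with LFD mice addresses genetic-induced obesity and uses the same 3 LFD mice. Timp1 had the largest log2 difference of the members, 2.59 (SE 0.46, 95% interval 1.54 to 3.65, limma, adjusted p = 0.137). Mmp12 followed with 1.86 (SE 0.65), Mmp14 with 1.63 (SE 0.48), Mmp9 with 1.39 (SE 0.49) and Mmp2 with 1.29 (SE 0.33). Timp2 and Timp3 differed by 1.12 (SE 0.45) and 0.99 (SE 0.42), and the smallest difference was that of Mmp7, 0.40 (SE 0.38, -0.47 to 1.26). Several of these values rested on 1 of the ob/ob mice. From ob/ob replicate 1 alone the difference was 0.35 for Timp2, 0.32 for Timp3 and 1.10 for Mmp12, and from ob/ob replicate 2 alone it was 0.53 for Mmp3 and 0.17 for Mmp7. The groups did not overlap for 8 of 10 members, all but Mmp3 and Mmp7, where 24.1% of all genes were higher without overlap. An unadjusted p under 0.05 was reached by 8 of 10 members, all but Mmp7 and Mmp13, and by 18.8% of all genes, 11.6% in the upward direction. The count changed when an LFD mouse was left out, and it was 5 without LFD replicate 1 or 2 and 3 without LFD replicate 3. The share of all genes in those fits is not set beside it, so a lower count is not read as a result about the members. The limma fit with only the LFD and ob/ob mice gave Timp1 an adjusted p of 0.0499 (38 genes in all under 0.05), and the fit without HFD replicate 1 gave it 0.0439 (89 genes). With all mice and no covariate, no gene of the data set had an adjusted limma p under 0.05, and 2831 had an unadjusted p under 0.05.

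**Figure D2:**
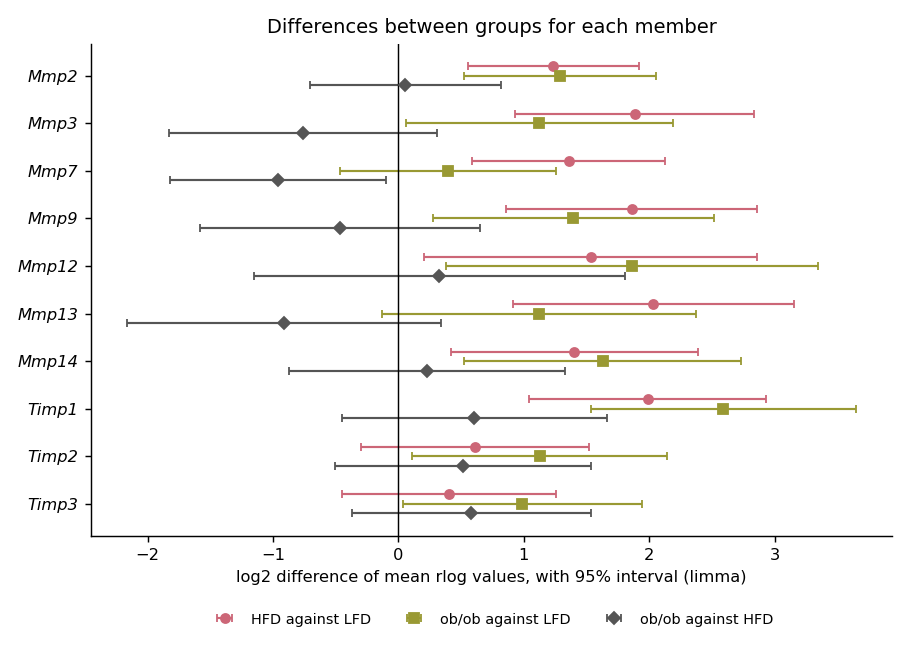
Points show the log2 difference of mean rlog values of each member for HFD against LFD, ob/ob against LFD and ob/ob against HFD, and horizontal bars the 95% interval from limma with all 8 mice. The intervals against LFD lie above 0 except for Timp2 and Timp3 in HFD mice and Mmp7 and Mmp13 in ob/ob mice, and those of ob/ob against HFD span 0 except for Mmp7.

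The obesity models were set against each other with ob/ob and HFD mice. Mmp3, Mmp7, Mmp9 and Mmp13 had the order HFD, ob/ob, LFD from the highest mean to the lowest, and Mmp2, Mmp12, Mmp14 and the 3 TIMPs the order ob/ob, HFD, LFD. Within these orders the obese groups were mostly not told apart. Mmp7 was the only member whose HFD and ob/ob mice did not overlap (13.3% of all genes), with a log2 difference of ob/ob minus HFD of -0.96 (SE 0.38, 95% interval -1.82 to -0.10). It was also the only one with an unadjusted limma p under 0.05 (0.0325, adjusted 0.9996), against 3.91% of all genes. Differences of similar size and wider interval were found for Mmp13 (-0.91, -2.16 to 0.34) and Mmp3 (-0.76, -1.83 to 0.31). The intervals of Mmp2 (-0.71 to 0.82), Mmp14 (-0.88 to 1.33) and Mmp12 (-1.16 to 1.81) reached about equally far in both directions. The TIMPs had higher means in ob/ob mice, by 0.60 for Timp1 (-0.45 to 1.66), 0.51 for Timp2 (-0.50 to 1.53) and 0.58 for Timp3 (-0.37 to 1.54). Leaving out 1 mouse turned the direction of ob/ob against HFD for Mmp2 (to -0.24 without HFD replicate 1), Mmp12 (-0.43), Mmp14 (-0.23), Timp2 (-0.26) and Timp3 (-0.080), the last 4 without ob/ob replicate 2. In this comparison 588 genes had an unadjusted p under 0.05 and 0 an adjusted one.

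Set against LFD together, as the mean of the HFD and ob/ob means, the obese groups gave 9 of 10 members an unadjusted limma p under 0.05, all but Timp3, where 25.4% of all genes passed. The 5 obese mice were all above the 3 LFD mice for Mmp2, Mmp9, Mmp12, Mmp13, Mmp14 and Timp1, 6 of 10 members, against 9.4% of all genes. Timp1 had a log2 difference of 2.29 (95% interval 1.44 to 3.14, limma, adjusted p = 0.0810), the lowest adjusted p of the members. Of all genes 3825 had an unadjusted p under 0.05, 2186 higher and 1639 lower in obese mice, and 0 an adjusted one. With each mouse centred on its median the split was 1823 higher and 2109 lower, and the 10 members still had a higher mean in both obese groups. Without HFD replicate 1, 7 members and 3326 genes had an adjusted p under 0.05 here.

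The balance of enzymes and inhibitors was described for each mouse. After each gene was centred on its LFD mean, the mean of the 7 MMPs was 0.93, 2.17 and 1.74 in the HFD mice and 1.13 and 1.39 in the ob/ob mice, as log2 differences from LFD. The mean of the 3 TIMPs was 0.26, 1.37 and 1.38 in the HFD mice and 0.98 and 2.15 in the ob/ob mice. The MMP mean exceeded the TIMP mean in all 3 HFD mice, by 0.68, 0.81 and 0.36, and the difference was 0.15 and -0.77 in the ob/ob mice and between -0.21 and 0.16 in the LFD mice. These values are a description of transcripts, and no test was made on means over the members. ob/ob replicate 2 was the only obese mouse in which the TIMP mean was above the MMP mean. In that mouse Timp1, Timp2 and Timp3 were 2.91, 1.90 and 1.65 above the LFD mean, while Mmp3 and Mmp7 were 0.53 and 0.17 above it.

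HFD replicate 1 and ob/ob replicate 1 are the obese mice whose acinar share was close to that of LFD mice. In HFD replicate 1 the 7 MMPs and Timp1 were above the highest LFD mouse, and Timp2 and Timp3 below the lowest. The differences from the LFD mean in that mouse were 1.35 for Mmp3, 1.18 for Mmp7, 1.03 for Timp1, 1.01 for Mmp13, -0.04 for Timp2 and -0.22 for Timp3. In ob/ob replicate 1 all 10 members were above the highest LFD mouse, with differences between 0.32 for Timp3 and 2.27 for Timp1. Each case is a single mouse, and the share of all genes above or below the LFD mice in that mouse was not computed. These positions describe the 2 mice and are not read as a result about the members.

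**Figure D3:**
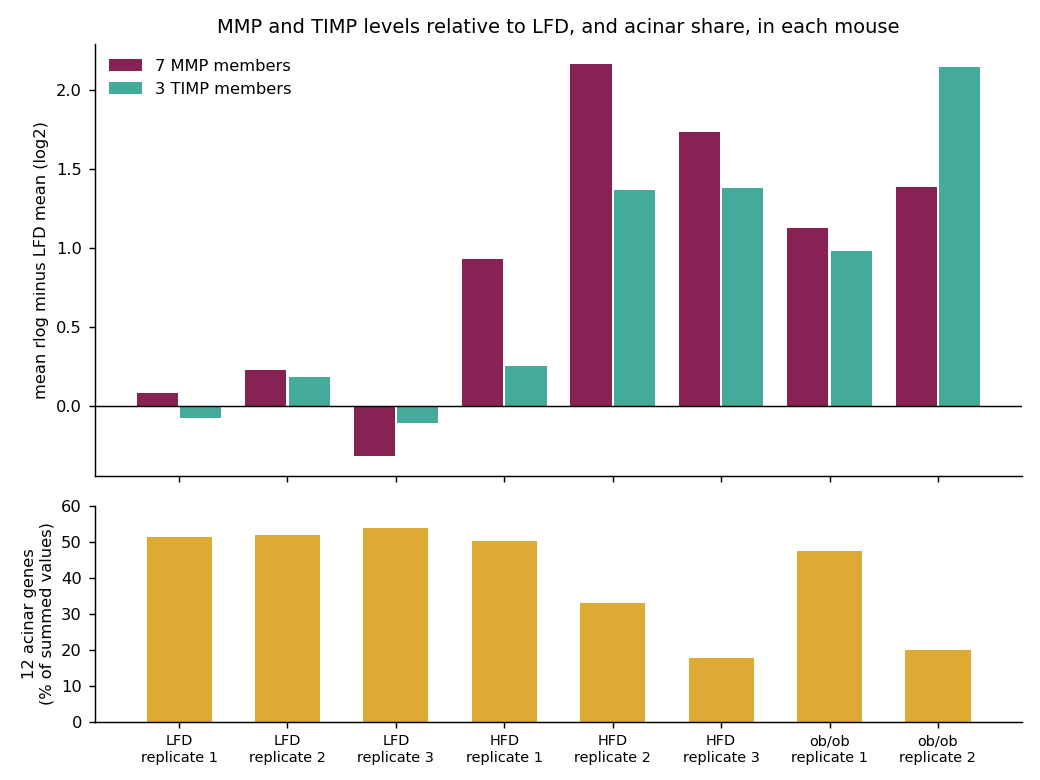
The upper bars show, for each mouse, the mean of the 7 MMP and of the 3 TIMP members as log2 difference from the LFD mean (without error bars, since each bar is a single mouse), and the lower bars the percentage of the summed linear values taken by 12 acinar genes. The MMP bar is taller than the TIMP bar in the 3 HFD mice, and HFD replicate 2, HFD replicate 3 and ob/ob replicate 2 have acinar shares of 33.1%, 17.8% and 19.9%.

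The acinar share was lowest in mice with high levels of the members. A further limma fit therefore took the rlog average over the 12 acinar markers as a covariate. It was 18.14, 18.25 and 18.54 in LFD, 18.40, 16.34 and 14.39 in HFD and 17.70 and 14.74 in ob/ob mice. Its low values lay in obese mice only, so this fit cannot tell acinar content and obesity apart. The values below describe the fit, and the acinar part in the differences was not tested. For HFD against LFD the log2 difference was then 1.95 for Mmp3 (SE 0.48), 1.56 for Mmp7 (SE 0.37), 1.68 for Mmp13 (SE 0.53) and 1.44 for Timp1 (SE 0.35). It was 0.79 for Mmp2, 0.67 for Mmp14 and 1.17 for Mmp9, and -0.06 (SE 0.23) for Timp2 and -0.24 (SE 0.17) for Timp3, so the direction of these TIMPs turned. For ob/ob against LFD, Timp1 was at 2.0 (SE 0.39), Mmp2 at 0.81 and Mmp14 at 0.83, while Timp2 and Timp3 were at 0.40 (SE 0.25) and 0.28 (SE 0.19). An unadjusted p under 0.05 was left for 7 members in HFD mice, all but Mmp12, Timp2 and Timp3, and for 4 in ob/ob mice (Mmp2, Mmp3, Mmp14 and Timp1). In the same fit 10.7% and 9.98% of all genes passed. The adjusted p of the members under this covariate was at least 0.296 for HFD and 0.158 for ob/ob mice.

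Markers of fibroblasts, macrophages and neutrophils had higher means in both obese groups than in LFD mice, except Dcn in HFD mice. At an unadjusted limma p under 0.05, 11.5% of all genes were higher in HFD and 11.6% in ob/ob mice. Of 8 fibroblast markers, 4 in HFD and 7 in ob/ob mice had a higher mean with an unadjusted limma p under 0.05, and their log2 summed level was 13.52 to 13.80 in LFD, 14.14 to 15.36 in HFD and 14.64 and 15.76 in ob/ob mice. Of 6 macrophage markers, 4 and 5 did so, with summed levels of 11.12 to 11.70, 11.98 to 12.75, and 12.74 and 13.60. Of 5 neutrophil markers in the data (Ly6g was not among the genes), 5 and 3 did so, with summed levels of 7.85 to 8.58, 9.35 to 11.19, and 9.16 and 9.46. None of these markers was at 0. Their part in the values of the members was not tested. The mean neutrophil marker was 1.07, 2.13 and 2.62 above LFD in the HFD mice and 1.26 and 1.00 in the ob/ob mice, and the mean macrophage marker 0.48, 1.32 and 1.04 in HFD and 1.15 and 1.91 in ob/ob mice. Ductal markers, the lineage of the graft, had summed levels of 13.50 to 13.84 in LFD, 13.67 to 14.97 in HFD and 13.02 and 13.73 in ob/ob mice, with a higher mean for 6 of 8 in HFD and 2 of 8 in ob/ob mice. Of these 8, 4 passed upwards in HFD mice, and 0 upwards and 1 downwards in ob/ob mice. All 12 acinar markers had a lower mean in both obese groups (median difference -1.97 in HFD and -2.07 in ob/ob mice). Of these, 2 in HFD and 11 in ob/ob mice lay below the LFD mice without overlap, as did 1844 and 3277 of all 15047 genes. Of the acinar markers 0 passed the unadjusted p, with summed levels of 24.51 to 25.12, 20.71 to 24.83, and 21.01 and 24.03. Of the remaining lists, the mean lymphocyte marker spread from -0.85 to 1.38 around LFD within the LFD mice alone and lay between -0.49 and 0.03 in obese mice, with 0 of 6 passing. In HFD mice 1 of 4 endothelial markers and 1 of 3 mesothelial markers passed upwards, 2 mesothelial and 1 of 5 adipocyte markers downwards, and 0 of 5 islet markers in either direction. In ob/ob mice 3 of 5 islet markers passed upwards, and 2 mesothelial markers and 1 adipocyte marker downwards.

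**Figure D4:**
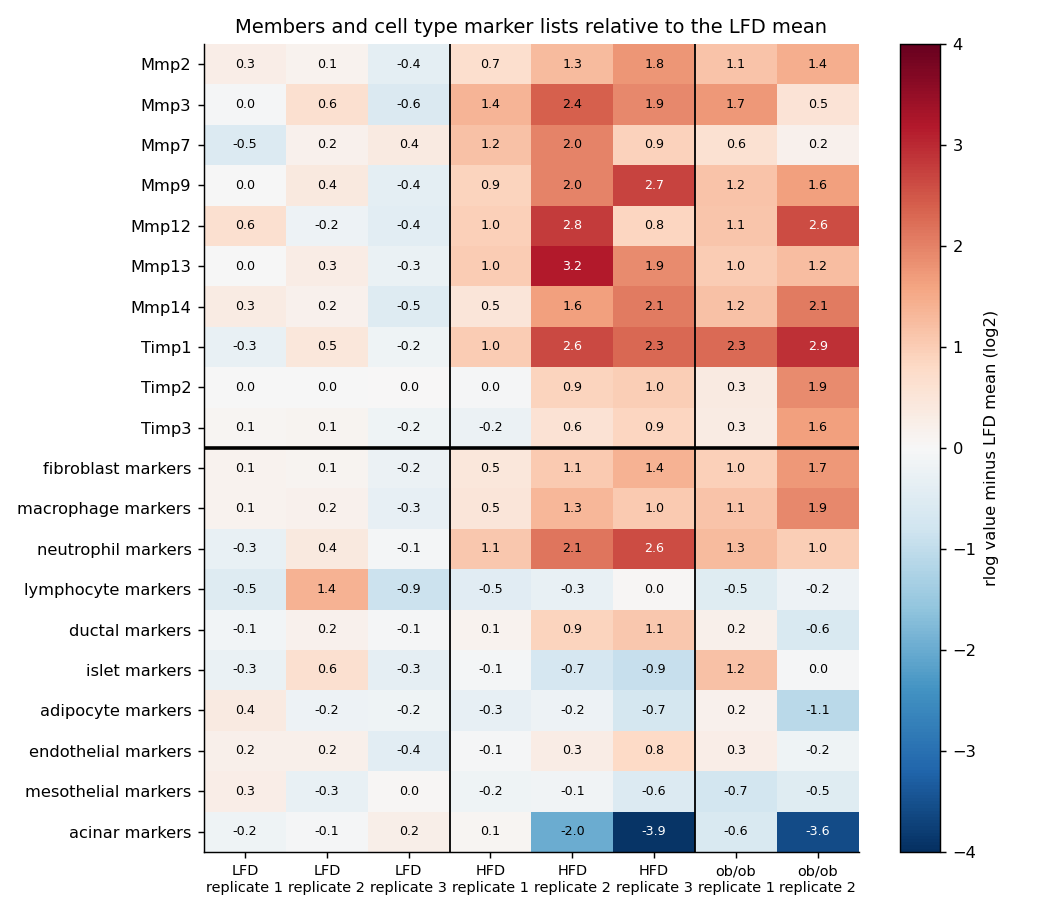
The colours and printed numbers give the rlog value of each member (upper rows) and the mean of each marker list (lower rows) in each mouse, as log2 difference from the LFD mean. Timp1 is 2.27 to 2.91 above LFD in 4 of the 5 obese mice, and the acinar list is 1.97 to 3.92 below LFD in the 3 mice with a low acinar share.

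4 of the members share a locus with other MMP genes. In Gencode M21 (GRCm38), chromosome 9 from 7272514 to 7699585, a span of 427 kb, holds 10 MMP genes, of which 7 were in the data: the members Mmp13 (chr9:7272514-7283331), Mmp12 (chr9:7344381-7369499), Mmp3 (chr9:7445822-7455975) and Mmp7 (chr9:7692090-7699585), and Mmp8, Mmp10 and Mmp27. All 7 had a higher mean in HFD and in ob/ob than in LFD mice. For all 7, 4 of them members counted above, each HFD mouse was above each LFD mouse (12.9% of all genes). The genes that are not members were weakly expressed, with rlog averages over the 8 mice of 1.62 for Mmp27, 3.63 for Mmp8 and 4.63 for Mmp10. Mmp27 differed by only 0.33 (SE 0.22) between HFD and LFD mice. The count over the locus thus rests in part on weakly expressed genes, whose counting error is unknown. Of the 7, 5 had a lower mean in ob/ob than in HFD mice, as did 48.3% of all genes. The other members lie apart, Mmp9 at chr2:164940780-164955850, Mmp2 at chr8:92827291-92853420, Mmp14 at chr14:54431612-54445364, Timp1 at chrX:20870166-20874735, Timp2 at chr11:118301069-118355740 and Timp3 at chr10:86300372-86349506. Timp3 lies within Syn3 on the opposite strand and shares 1733 of its 8144 exon bases with it, so without a stated strand setting reads there cannot be assigned with certainty. Syn3 had rlog values of 2.78 to 4.45 and its lowest value in ob/ob replicate 2, where Timp3 had its highest. Mmp12 shares 157 of 7237 exon bases with Mmp1b, and Mmp7 123 of 1068 with an antisense gene, and neither partner was in the data.

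The other MMPs and Timp4 were measured for 13 of 17 genes (Mmp1a, Mmp1b, Mmp20 and Mmp21 were not among the genes). In limma 4 had a higher and 0 a lower mean at an unadjusted p under 0.05 in HFD mice, and 5 and 1 in ob/ob mice, with median differences of 0.60 and 0.66. Over all 15047 genes, 11.5% were higher at this p and 1257 genes lower in HFD mice, and 11.6% higher and 1080 genes lower in ob/ob mice. Mmp8, the collagenase of neutrophil granules and also a marker in the neutrophil list, had log2 differences of 1.59 (SE 0.32) in HFD and 1.31 (SE 0.35) in ob/ob mice. Mmp25, a membrane-anchored MMP of leukocytes, differed by 1.5 and 0.94. Mmp10, a stromelysin, differed by 1.70 (SE 0.43) in HFD and by 0.62 (SE 0.48) in ob/ob mice, and its 3 HFD mice were above both ob/ob mice. For Mmp19, known from stromal and inflammatory cells, the differences were 0.79 (SE 0.37) and 1.30 (SE 0.41).

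Among activators, inhibitors and binding partners, 15 of 16 genes were measured (all but Plg), of which 7 were higher and 0 lower in HFD mice at an unadjusted p under 0.05, and 5 higher and 1 lower in ob/ob mice. Of all genes 11.5% were higher at this p in HFD and 11.6% in ob/ob mice. The median differences of the list were 0.76 and 1.13. A2m, the plasma protease inhibitor that traps MMPs and other proteases, was at 5.16, 5.24 and 4.48 in LFD, 6.08, 7.03 and 6.74 in HFD and 7.72 and 7.58 in ob/ob mice. The 3 groups did not overlap for A2m, with log2 differences from LFD of 1.66 (SE 0.32) in HFD and 2.69 (SE 0.36, limma, adjusted p = 0.135) in ob/ob mice. Plaur, the urokinase receptor, differed by 1.53 (SE 0.62) and 1.16 (SE 0.69), and its value in HFD replicate 1 lay within the LFD range. Tfpi2, a serine protease inhibitor of the matrix, differed by 1.30 (SE 0.31) and 1.34 (SE 0.35), with no overlap between obese and LFD mice.

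ADAM and ADAMTS proteases, which TIMPs, Timp3 above all, can inhibit, were measured for 18 of 18 genes. In HFD mice 7 were higher and 1 lower at an unadjusted limma p under 0.05, and in ob/ob mice 9 and 0, with median differences of 0.52 and 1.05. Of all genes 11.5% were higher at this p in HFD and 11.6% in ob/ob mice. Adamts4, an aggrecanase, differed by 1.95 in HFD and 2.03 in ob/ob mice, Adam19 by 1.65 and 1.33, Adamts12 by 1.36 and 1.54, and Adamts2, which removes the amino-terminal propeptide of fibrillar procollagens, by 1.28 and 1.61. For these 4 genes, named for the largest differences between obese and LFD mice, the LFD mice lay below every obese mouse. Of the 18 genes 6 were higher and 1 lower in obese mice without overlap. Of all 15047 genes 9.4% were higher and 1362 genes lower in this way.

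Among MMP substrates the counts were the highest of the 5 lists of related genes, with 12 of 14 genes higher and 0 lower in HFD mice at an unadjusted limma p under 0.05 and 11 and 0 in ob/ob mice. The median differences of the list were 1.29 and 1.44, and 11.5% of all genes were higher at this p in HFD and 11.6% in ob/ob mice. Col1a1, a chain of collagen I, was at 9.79, 9.28 and 8.89 in LFD, 10.63, 11.28 and 12.53 in HFD and 11.29 and 11.72 in ob/ob mice. Col1a2, the other chain, differed from LFD by 1.48 and 1.92, Col5a1 of collagen V by 1.66 and 2.24, and Tnc, the matrix protein tenascin-C, by 1.86 and 2.05. The collagen I genes, and other genes of this list, are also in the fibroblast list.

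AP-1 subunits and other inducers of MMP genes were measured for 14 of 15 genes (all but Fosl1). In HFD mice 7 were higher and 0 lower at an unadjusted limma p under 0.05, and in ob/ob mice 2 and 1, with median differences of 1.02 and 0.83. Of all genes 11.5% were higher at this p in HFD and 11.6% in ob/ob mice. Il1b, a cytokine that induces collagenase and stromelysin in fibroblasts, was at 6.23, 7.50 and 6.89 in LFD, 7.84, 9.55 and 9.09 in HFD and 7.96 and 8.10 in ob/ob mice. Its log2 differences from LFD were 1.95 (SE 0.46) and 1.15 (SE 0.51), those of Il1a 1.95 (SE 0.53) and 1.14 (SE 0.60), and those of Junb, an AP-1 subunit, 1.52 (SE 0.43) and 0.76 (SE 0.48). Il1b, Il1a and Junb thus had higher means in HFD than in ob/ob mice, as did Mmp3, Mmp7, Mmp9 and Mmp13, and the unadjusted limma p for ob/ob against HFD was 0.154 for Il1b, 0.207 for Il1a and 0.147 for Junb. Mmp12, with the same AP-1 and TATA letters, had the higher mean in ob/ob mice (by 0.33), and Mmp9 had no promoter window. A link between these genes was not tested. Etv4, a factor that binds the PEA3 element, differed by 1.33 (SE 0.68) and 1.69 (SE 0.76).

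The genes with the profile most like that of a member were found by the root mean square difference of centred rlog values over 8 mice, among 11832 other genes with a mean of at least 5. These are likenesses over 8 libraries that also share the acinar differences given above. Nearest to Timp1, which had the largest SD of the members, were Bub1, a kinase of the mitotic checkpoint (0.224), Tubb6, a tubulin (0.283), and Pbk, a kinase of dividing cells (0.288), and the nearest member was Mmp14 (0.513, rank 127). Nearest to Mmp14 were Msn, which links membrane and actin (0.118), Bmp1, the procollagen C-proteinase (0.125), and Adamts2 (0.137), and the nearest member was Mmp2 (0.255, rank 59). Nearest to Mmp9 were Anxa8, an annexin (0.164), and the histone genes Hist1h2bn (0.175) and Hist1h2bm (0.204), whose near-identical copies make their values uncertain, and the nearest member was Mmp14 (0.346, rank 70).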

How the data were processed

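RNA was sequenced from the pancreas of 8 mice. Groups and replicate numbers were taken from the sample titles. Replicates are different animals. The authors extracted total RNA and sequenced paired-end libraries, and quantified transcripts of Gencode M18 with Salmon (0.11.3 per the submitters' processing notes, which also name FastQC and the build GRCm38.p6). The authors summarized them per gene with tximport and deposited values on the log2 scale, made by the rlog function of DESeq2 (1.22.2). The filter that left 15047 genes, the strand setting and the design given to rlog are not given in the sources used here. Counts, which the authors tested with DESeq2, were not analysed here, so the depth and the counting error are unknown.

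Differences were fitted to all genes and all 8 mice with limma (3.58.1, R 4.3.3), using group means, a trend of the variance on the mean, and Benjamini-Hochberg adjustment over all genes. This step was tested on simulated data with independent noise for each gene, so the test does not cover deviations that many genes share. For single genes, an exact permutation test of 3 mice against 3 cannot go below 0.1 and that of 3 against 2 not below 0.2, so none was used. Summaries, motif searches and figures used Python 3.11.15, pandas 2.3.3 and matplotlib 3.10.9. The summed level of a marker list is the log2 of its summed linear values. Gene coordinates are from Gencode M21 on GRCm38, and promoter windows from RefSeq on GRCm38.p6.

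The members, the gene lists and the marker lists were chosen with earlier results of these data known. Named genes are the 10 members, up to 4 genes a list with the largest difference between obese and LFD mice, and the 3 genes most like Timp1, Mmp14 and Mmp9. The values of 1 list gene are not reported here. As alternatives, the trend was dropped, the fit was limited to the compared groups or to genes with a mean of at least 5, mice were median-centred, quantile-normalized or given array weights, replicate number entered as a block or the acinar mean as a covariate, and each mouse was left out. Leaving out HFD replicate 3 and ob/ob replicate 2 together was added after the data were seen. Replicate numbers were not treated as pairs in the main fit, and the deviations of same-numbered LFD and HFD mice correlated at -0.06, 0.11 and -0.28.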

Additional observations from a re-analysis of the deposited data

How the results depend on the processing

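The members' differences from LFD kept their direction under the alternatives, except for Timp2 (-0.057) and Timp3 (-0.24) in HFD mice with the acinar covariate. Of 170 values for HFD against LFD 151 kept side and direction and 17 newly passed an adjusted p under 0.05, of 170 for ob/ob against LFD 168 and 2, and of 160 for the obese groups together 142 and 18. For ob/ob against HFD 12 of 170 turned: with array weights Mmp12 (-0.78) and Mmp14 (-0.0071), without both HFD replicate 3 and ob/ob replicate 2 Mmp12 (-0.77) and Timp2 (-0.079), and, leaving out each mouse in turn, Mmp2 (-0.24 to 0.33), Mmp12 (-0.43 to 1.08), Mmp14 (-0.23 to 0.69), Timp2 (-0.26 to 1.29) and Timp3 (-0.080 to 1.24). The causes were not tested.

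The number of members with an unadjusted p under 0.05 for ob/ob against LFD (8) was 4 with the acinar covariate, 5 without both mice and 3 to 9 leaving out each mouse. For ob/ob against HFD (1) it was 3 with array weights, 2 with the acinar covariate, 0 without both mice and 0 to 4 leaving out each mouse. Genes with an adjusted p under 0.05 (0 in each comparison) numbered, for HFD against LFD, 1 with only the groups compared, 6656 with array weights, 1 without both mice and 0 to 2812 leaving out each mouse. For ob/ob against LFD they were 38, 1 with the acinar covariate, and 0 to 89. For ob/ob against HFD they were 1 with the covariate, 1 without both mice, and 0 to 1. For the obese groups together they were 4286 with array weights, 1 with the covariate, 1 without both mice, and 0 to 3326, the highest without HFD replicate 1 and 476 without ob/ob replicate 1. Array weights stopped before convergence. Apart from ob/ob against LFD with the acinar covariate, the share of all genes at an unadjusted p under 0.05 is not set beside these member counts. They describe the fits and are not read as results about the members.

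With the replicate number as a block, the members with an unadjusted p under 0.05 for ob/ob against HFD were 0, the adjusted p of the members for HFD against LFD lay between 0.132 and 0.483, and no call of a member at an adjusted p under 0.05 was gained or lost. The count for ob/ob against LFD was 7. Same-numbered HFD and ob/ob mice deviated together (0.59 and 0.30), as did HFD replicate 3 and ob/ob replicate 2 (0.44). With 2 ob/ob mice the deviations from their mean are mirror images, so these values cannot decide whether the numbers mark pairs.

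Groups of 3, 3 and 2 mice limit all tests, and where a left-out mouse leaves 1 ob/ob animal it is assumed to vary like the other groups. The depth is unknown, so the counting error of weakly expressed genes could not be given.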
